A study of Homo sapiens with 33 samples.

Results

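Nalm6 cells carrying a CRISPR/Cas9 edit of TLE1 (TLE1 knockout) were compared with their unedited parental Nalm6 line after 24 h in 100 nM dexamethasone. The 3 knockout and 3 parental samples whose titles name this drug and time were used, 6 of the 33 samples and 2 of the 11 groups in the series. Nalm6 is an established line of B-cell precursor acute lymphoblastic leukaemia (ALL). Gene counts from RNA sequencing were compared directly between lines. For reference, the same line difference was measured in 3 untreated samples and in 3 samples given 5 µM prednisolone for 24 h of each line. A separate group of 3 untreated parental samples, titled together with the dexamethasone samples, gave the parental dexamethasone response. No untreated knockout group with such a title was among the samples used here. All groups were grown in medium with charcoal-stripped serum, which removes steroid hormones. The labels do not say whether the knockout line is 1 clone or a pool, nor which exon was cut. For the dexamethasone groups they do not say whether the 3 samples came from separate cultures, so p-values measure the spread between these samples, which may be technical.

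Dexamethasone and prednisolone are synthetic glucocorticoids that kill many lymphoid leukaemia cells. They bind the glucocorticoid receptor, encoded by NR3C1, which leaves its chaperone complex of HSP90 and FKBP proteins, enters the nucleus and raises or lowers the transcription of its target genes. In lymphoid cells, the targets include BCL2L11, which encodes the death-promoting protein BIM. TLE1 is a co-repressor of the Groucho family. It does not bind DNA itself and is recruited by factors such as TCF and LEF, the DNA-binding partners of beta-catenin in the Wnt pathway. The series addresses how glucocorticoid and Wnt signalling act on each other in ALL.

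The knockout samples had 25.3 to 29.3 counts in genes per sample in units of 1000000, and the parental samples 40.6 to 43.2. Unmapped reads were 2.84% to 4.54% of the knockout libraries and 5.505% to 11.2% of the parental libraries. Reads with several mapping positions were 6.97% to 7.55% and 5.49% to 5.72%. Depth and mapping therefore differed between the lines without overlap, and their part in the results was not tested. The labels name no batch, but the deposited files number the knockout and parental dexamethasone samples in separate runs, so line and library run cannot be told apart. B-cell precursor markers were read in both lines, with summed levels of 8075 to 8196 CPM (counts scaled to a sample total of 1000000) in the knockout and 7225 to 7371 CPM in the parental samples. The T-cell genes CD3D, CD3E, CD3G, CD5 and CD7 had no count in any of the 6 samples. Other listed T-cell markers were read there, with LCK at up to 44.4, GATA3 24.4, PTCRA 13.3 and BCL11B 6.81 CPM. The untreated parental group titled with these samples held some reads of CD3E, CD3G and TRBC2, at means of 0.0587, 0.0734 and 0.205 CPM. Their SDs were 0.102, 0.127 and 0.356 CPM, the values reached when 1 of the 3 samples holds all the reads.

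TLE1 transcripts were lower in the knockout but not absent. TLE1 stood at 134, 131 and 129 CPM in the parental samples and at 57.5, 55.3 and 59.0 CPM in the knockout samples. The groups did not overlap, and the difference was 2.27-fold, a log2 fold change of -1.18 ± 0.03 (standard error, SE; adjusted p = 6.31e-17, edgeR quasi-likelihood test with Benjamini-Hochberg adjustment over all genes). Untreated, the log2 difference was -0.36, and under prednisolone it was -0.82. Dexamethasone raised TLE1 itself in parental cells by 2.25 on the log2 scale. The line difference was more negative under dexamethasone than untreated by -0.83 ± 0.07 on the log2 scale (adjusted p = 1.06e-07, edgeR interaction contrast). A count over the whole gene does not read the edited base or the protein.

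Over the transcriptome, 9496 of 16763 genes tested differed between lines under dexamethasone at an adjusted p under 0.05, 56.6% of them (edgeR). Of these, 4780 genes (28.5%) were higher and 4716 (28.1%) lower in the knockout, and the median over all genes tested was -0.0036 on the log2 scale. A change of 1 or more on the log2 scale, in either direction, was reached by 1362 called genes (8.13%). The 556 higher genes were 3.32% and the 806 lower genes 4.81% of those tested. With at least 10 counts required in every library the number was 757, of which 383 were higher and 374 lower. In untreated cells 27.1% of genes tested differed between lines, and under prednisolone 32.5% did. Replicates of the knockout spread more in those conditions. The chi-square per degree of freedom between replicate pairs was 17.7 to 33.0 in untreated and 7.63 to 17.4 in prednisolone knockout samples. It was 2.29 to 4.30 in the dexamethasone samples of both lines. A lower share therefore need not mean smaller line differences, and the part of the spread was not tested. Counts of called genes in each group of genes are read against the shares of all genes tested.

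Genes that respond to glucocorticoids were mostly lower in the knockout. Of 17 listed glucocorticoid-responsive genes, all tested, 15 were lower, 1 was higher and 1 was not called, with a median log2 difference of -1.11. In untreated cells, the 14 listed genes that could be tested had a median of 0.01. In the test of the difference between treatments, 10 of 17 were more negative under dexamethasone than untreated and 2 more positive. Over all genes, 30.3% were called in that test, 16.6% more negative and 13.7% more positive. The untreated samples carry other titles than the dexamethasone ones. Treatment and sample set therefore cannot be told apart in that contrast.

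FKBP5, a receptor co-chaperone and classical target, is an example. It stood at 548, 558 and 535 CPM in parental samples and at 234, 239.7 and 234 CPM in knockout samples under dexamethasone. Every knockout sample was under every parental one, a log2 difference of -1.20 ± 0.03 (adjusted p = 2.82e-18, edgeR). Untreated, the difference of 0.17 ± 0.08 did not pass the test (adjusted p = 0.158, edgeR). The difference from untreated was -1.37 ± 0.09 (adjusted p = 8.43e-09, edgeR).

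TXNIP, which binds thioredoxin and restrains glucose uptake, stood at 881, 945 and 929 CPM in parental samples and at 312, 315 and 323 CPM in the knockout. The samples of the lines lay far apart, with a log2 difference of -1.52 ± 0.03. Parental cells raised TXNIP by 3.63 on the log2 scale under dexamethasone, from 67.6 to 78.3 CPM in their untreated group. The knockout samples thus lay between untreated and treated parental levels.

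TSC22D3 encodes GILZ, a glucocorticoid-induced leucine zipper protein. Its levels were 468, 474 and 481 CPM in parental and 149.8, 157 and 165 CPM in knockout samples, a log2 difference of -1.58 ± 0.04. Without drug it differed by -1.52 ± 0.09, and the difference between treatments did not pass the test (adjusted p = 0.655, edgeR). That contrast used untreated parental samples at 19.6 to 23.4 CPM and knockout samples at 7.03 to 7.87 CPM, whereas the untreated parental samples titled with the dexamethasone set stood at 12.2 to 12.5 CPM. NR3C1, the receptor itself, showed the same order of values. It stood at 539.7, 546 and 528 CPM in parental samples and at 316, 319 and 319 CPM in the knockout, a difference of -0.75 ± 0.03 under dexamethasone and -0.62 ± 0.06 untreated.

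Other listed targets were lower to differing degrees. SGK1, a kinase of ion transport and survival, stood at 15.3, 14.1 and 14.7 CPM in parental samples and at 3.93, 2.85 and 3.21 CPM in the knockout, a log2 difference of -2.13. ZBTB16, a zinc finger repressor, differed by -1.39, the purinergic receptor gene P2RY14 by -1.26 and the clock gene PER1 by -1.12. DDIT4, an inhibitor of mTOR, differed by -1.01, and SOCS1, which restrains cytokine receptors, by -0.79. Smaller differences were found for SLA (-0.66), KLF9 (-0.64) and BTG1 (-0.58). DUSP1, a phosphatase of MAP kinases, was higher by 0.16. Parental cells had less DUSP1 with dexamethasone, at a mean of 142 CPM against 189 CPM in the untreated samples titled with that set. ISG20, an exonuclease, differed by 0.08 with an adjusted p of 0.0533 (edgeR). ISG20 passes the test in 6 of the alternative analyses. PFKFB2, which sets the level of fructose 2,6-bisphosphate, was read at 1.18, 0.812 and 0.902 CPM in parental samples and at 0.0742, 0 and 0.0683 CPM in the knockout, too few counts there for a fold.

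**Figure D1:**
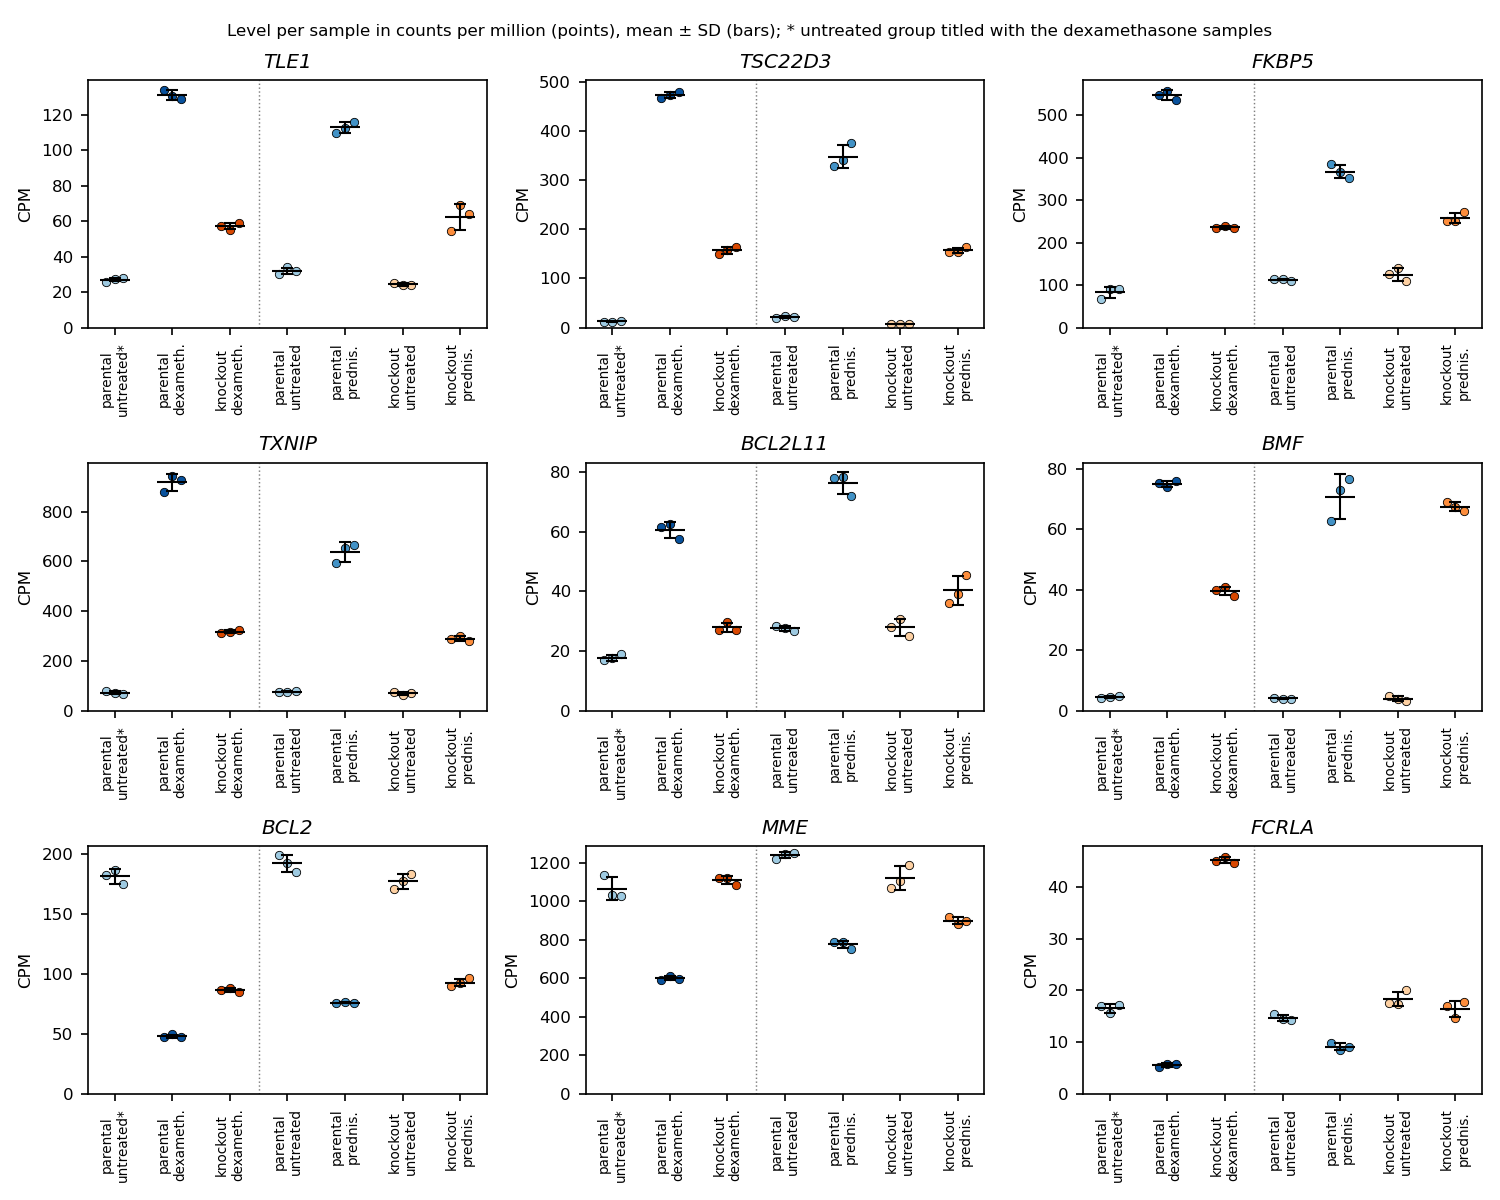
Level in CPM of 9 named genes in every sample (points) with the mean and SD over 3 samples (bars), for untreated, dexamethasone and prednisolone groups of both lines; the star marks the untreated parental group titled with the dexamethasone samples. Under dexamethasone the knockout samples of TLE1, TSC22D3, FKBP5, TXNIP, BCL2L11 and BMF all lie under the parental ones, and those of BCL2, MME and FCRLA all lie over them.

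One glucocorticoid receptor element core was found in the promoter windows of the 17 listed genes. A RefSeq table of promoters (GRCh38.p14, 250 bases before to 50 after each gene start) held windows for 14 of them. Only the 250 bases before each start were searched, for ACANNNTGT, which is its own reverse complement. TXNIP had the match, 173 bases before the start, at chr1:145996723-145996772 on the minus strand. LILRB4, among the largest rises described further on, had one 30 bases before its start, at chr19:54662935-54662984 on the plus strand. The paralogue LILRB3, with at most 1 count in any of the 6 samples, had the same match in a nearly identical stretch at chr19:54223027-54223076 on the minus strand. The 3 stretches are shown to compare a gene that was lower, a gene that was higher and a near copy that is at the floor; capitals mark the match.
TXNIP: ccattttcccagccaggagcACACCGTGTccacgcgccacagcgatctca
LILRB4: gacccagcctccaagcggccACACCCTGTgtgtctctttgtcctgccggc
LILRB3: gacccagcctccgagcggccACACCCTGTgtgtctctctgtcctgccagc

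The core was as frequent among higher as among lower genes. It occurred in 4.68% of all 27303 windows in the table and in 2.41% of the 10716 matched to genes tested. It occurred in 4.58% of the 437 matched genes lower in the knockout at the size rule and in 4.88% of the 328 higher ones. Of genes raised by prednisolone, 33 of 623 matched windows held it, 5.30%. The TCF/LEF motif CTTTGAA, searched on both strands, occurred in 3.88% of all windows, in 2.23% of those of genes tested, in 4.12% of lower and 2.13% of higher genes, in 2.41% of prednisolone-raised genes and in 0 of the 14 listed targets. A match describes letters in a short window, and its absence says nothing of binding elsewhere.

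Genes that prednisolone raises in parental cells were taken from samples that this comparison did not use. Prednisolone raised 1253 genes (6.72% of 18658 tested) and lowered 385 (2.06%) by 1 or more on the log2 scale. Of the raised genes 1065 passed the low-count filter here, and 638 were lower and 117 higher in the knockout under dexamethasone, with a median of -0.56. Some raised genes pass that filter through the parental samples alone. Among the 800 with at least 10 counts in every one of the 6 samples, 470 were lower and 112 higher, with a median of -0.45. Over all 14887 genes with such counts, 4193 were lower and 4597 higher, with a median of 0.01. Lowered genes went the other way. Of 275 tested, 162 were higher and 42 lower, with a median of 0.58, and of the 208 with at least 10 counts in every sample, 138 were higher and 26 lower, with a median of 0.60.

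The size of the line difference followed the size of the parental response. The 12387 genes that prednisolone moved by under 0.5 on the log2 scale had a median line difference under dexamethasone of 0.01. Genes raised by 1 to 2 had a median of -0.39 (688 genes), those raised by 2 to 4 a median of -0.82 (260 genes) and those raised by over 4 a median of -2.07 (121 genes), of which 88.4% were lower. With at least 10 counts in every sample, the last median was -1.39 over 68 genes, of which 88.2% were lower. Genes lowered by 1 to 2 had a median of 0.55 (251 genes) and those lowered by more than 2 a median of 1.05 (24 genes). The median untreated line difference did not grow in this way with the parental dexamethasone response, with which it shares no sample. Medians were 0.14 for genes raised by 2 to 4 (218 genes) and -0.03 for genes raised by over 4 (39 genes). Of these 39 genes, 28.2% were higher and 33.3% lower. Genes too low to be tested in untreated cells are not among them, so the untreated medians cannot speak for those genes. Under prednisolone, the medians of the line difference were -0.32 (314 genes) and -1.05 (148 genes).

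**Figure D2:**
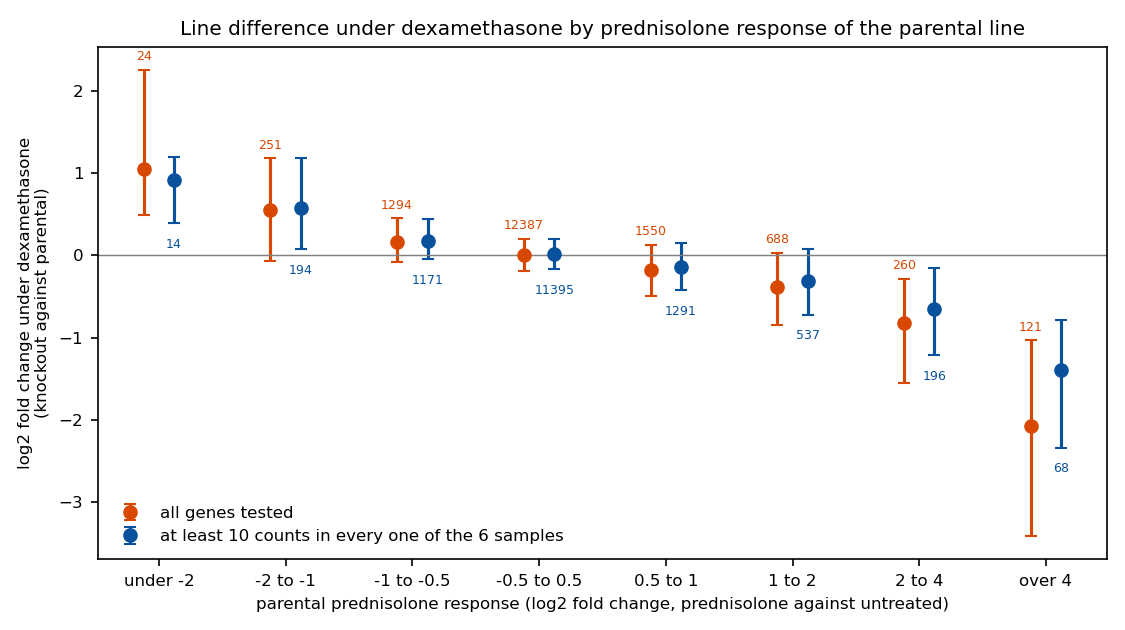
Median log2 fold change between lines under dexamethasone (points; bars span the middle 50% of genes, and the number beside each is its count of genes) for genes grouped by the prednisolone response of parental cells, which shares no sample with it. Over all genes tested the median goes from 1.05 to -2.07 across the groups, and with at least 10 counts in every one of the 6 samples from 0.92 to -1.39.

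The regulators of cell death divided. Of 14 BCL2 family genes tested, 5 were higher and 6 lower, with a median of -0.07 that was 0.02 once a trend on GC content was removed, -0.03 without knockout replicate 3 and -0.04 without parental replicate 3. BCL2L11 stood at 61.7, 62.6 and 57.7 CPM in parental samples and at 27.1, 29.7 and 27.1 CPM in the knockout, which did not overlap. The log2 difference was -1.11 ± 0.04 (adjusted p = 8.27e-15, edgeR), against 0.04 ± 0.08 in untreated cells. BMF, another BH3-only death promoter, stood at 75.3, 74.1 and 75.9 CPM in parental and at 40.01, 40.8 and 38.1 CPM in knockout samples, a difference of -0.91 ± 0.04. Its line difference did not pass the test in either other condition, at -0.0037 ± 0.13 untreated and -0.04 ± 0.07 under prednisolone, although prednisolone raised BMF in parental cells by 4.11.

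BCL2, the survival protein that BIM and BMF bind, was higher in the knockout. Its knockout levels were 86.6, 88.0 and 85.3 CPM and its parental levels 47.4, 49.4 and 47.2 CPM, with a difference of 0.86 ± 0.03 (adjusted p = 6.22e-15, edgeR). Dexamethasone lowered BCL2 in parental cells by 1.96 on the log2 scale, so the knockout samples lay nearer to the untreated parental range of 175 to 187 CPM than the treated parental samples did. The BH3-only genes HRK, BIK and BBC3 were also higher, by 1.47, 1.19 and 0.71. BCL2L1, which encodes the survival protein BCL-XL, was lower by a log2 difference of -0.30.

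Receptor complex and coregulator genes were more often lower. Of 19 tested, 11 were lower and 5 higher, with a median of -0.13. The list holds NR3C1 and FKBP5, described above among the glucocorticoid-responsive genes. The co-activator NCOA1 differed by -0.60, and the acetyltransferases CREBBP and EP300 by -0.49 and -0.39. The chaperones HSPA8 and HSP90AA1 differed by -0.46 and -0.32. FKBP4, the co-chaperone that competes with FKBP5 for the receptor complex, went the other way. It stood at 48.2, 50.4 and 53.7 CPM in the knockout and at 19.3, 19.0 and 18.9 CPM in parental samples, 2.68-fold higher. FKBP4 was also higher in the knockout untreated, by 0.92, and under prednisolone, by 1.19.

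Among the partners of TLE1, 13 TLE and TCF/LEF genes were tested, TLE1 included, with 5 higher, 6 lower and a median of -0.06 that was 0.05 once a trend on GC content was removed, -0.03 without knockout replicate 1 and -0.10 without parental replicate 3. The paralogue TLE2 was higher at 30.3, 25.4 and 26.9 CPM in the knockout against 9.18, 9.15 and 9.21 CPM, a log2 difference of 1.59. TLE6, a shorter family member, was higher by 1.19 and TLE4 by 0.22. The factor TCF7L2 differed by -0.45, the beta-catenin co-activator BCL9L by -0.67 and CTNNB1, beta-catenin itself, by -0.17. Of 10 tested genes for factors that recruit TLE proteins, 5 were lower and 3 higher, with a median of -0.12. That median was -0.22, -0.08 and -0.19 without knockout replicates 1, 2 and 3 in turn, and -0.23 without parental replicate 1. PRDM1, a repressor that drives plasma cell differentiation, differed by -0.81.

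Wnt targets were divided. Of 16 listed, 10 were tested, of which 4 were higher and 2 lower, with a median of 0.30. The median was 0.18 without parental replicate 2, 0.46 without parental replicate 3, 0.11 with no filter on low counts and 0.04 in the unstranded counts. LEF1, itself a target and a TLE1 partner, stood at 318, 290.5 and 295 CPM in the knockout and at 212, 210.3 and 206 CPM in parental samples, a difference of 0.54 ± 0.03. In untreated cells LEF1 was lower in the knockout, by a log2 difference of -0.36. The transcription factor MYC was higher by 0.53, with an untreated difference of 0.07 that did not pass the test, and APCDD1, a Wnt inhibitor, was higher by 0.68. JUN, a subunit of AP-1, differed by -1.28. Dexamethasone lowered LEF1 and MYC in parental cells by 1.30 and 1.08 on the log2 scale.

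B-cell precursor genes were more often higher. Of 21 tested, 11 were higher and 5 lower, with a median of 0.13 (0.19 once a trend on GC content was removed), and 11 of 21 were more positive under dexamethasone than untreated. CD38, a surface enzyme of precursors and plasma cells, stood at 107, 102 and 96.8 CPM in the knockout and at 32.0, 31.8 and 33.4 CPM in parental samples, 3.18-fold higher. MME, which encodes the precursor antigen CD10, stood at 1122, 1121 and 1086 CPM in the knockout and 593, 614 and 597 CPM in parental samples. Both genes were separated between lines, and both are lowered in parental cells by dexamethasone, by 1.37 and 0.86 on the log2 scale. CD22 was higher by 1.22 and the surrogate light chain gene VPREB1 by 1.09. Lower were CD79A, a signalling chain of the B-cell receptor, at -1.08, and DNTT, the nucleotidyl transferase of precursors, at -0.36. MS4A1, which encodes CD20, stood at 2.15 to 2.63 CPM in parental and 0.223 to 0.307 CPM in knockout samples. CD79A and MS4A1 also differed between the untreated parental groups. Means were 60.0 and 0.231 CPM in the group compared with the untreated knockout. In the group titled with the dexamethasone samples they were 118 and 1.99 CPM. Parental prednisolone samples held MS4A1 at a mean of 0.194 CPM.

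**Figure D3:**
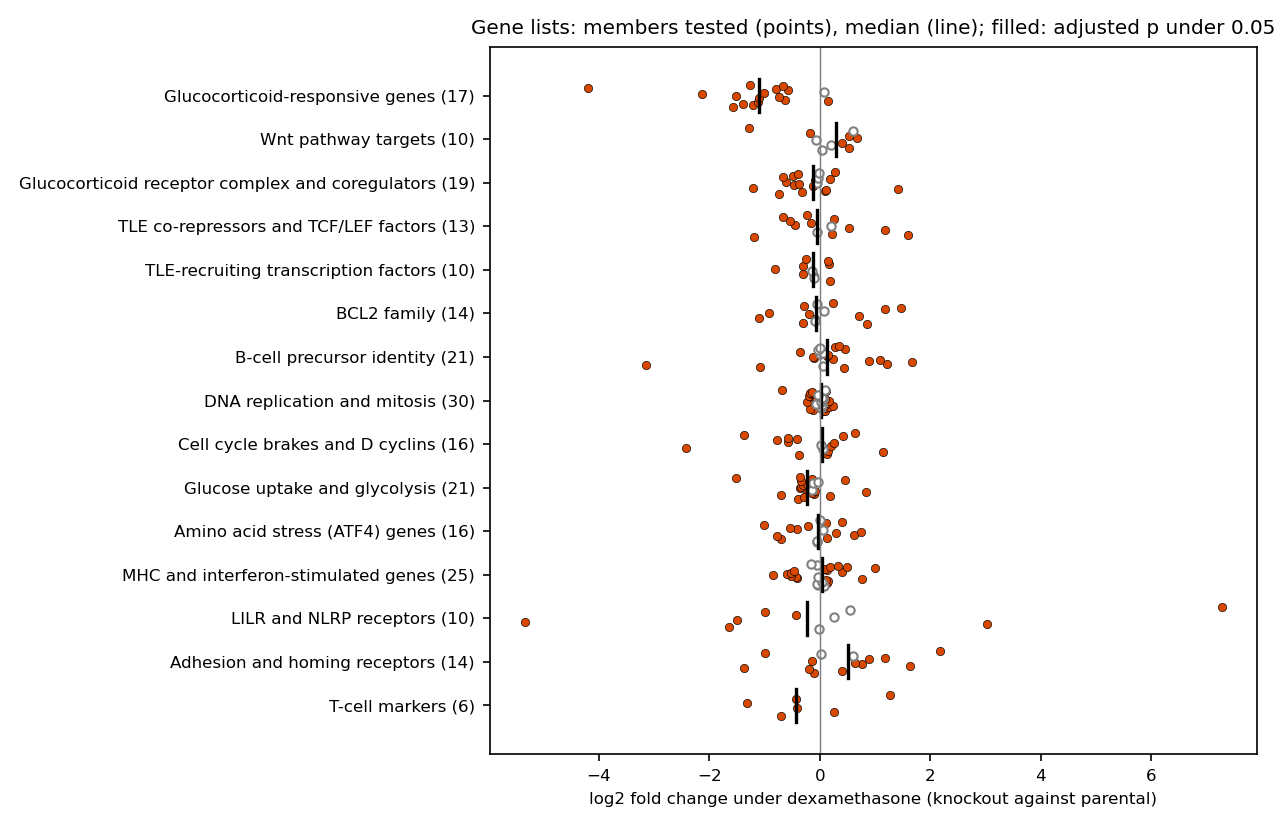
Log2 fold change between lines under dexamethasone of every tested member of each gene list (points; filled where the adjusted p is under 0.05) with the list median (vertical line) and the number tested. The median of the glucocorticoid-responsive genes lies at -1.11, and those of the Wnt pathway targets, B-cell precursor genes and glycolysis genes lie at 0.30, 0.13 and -0.24.

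Proliferation genes divided evenly, and growth brakes differed gene by gene. Of 30 DNA replication and mitosis genes, 10 were higher and 12 lower, with a median of 0.03 that was -0.05 once a trend on GC content was removed. It was 0.06 and -0.04 without knockout replicates 1 and 3, and -0.0011 without parental replicate 2. CDC20, an activator of the anaphase-promoting complex, differed by -0.68, and E2F1 and PCNA by 0.17 each. Of 16 cell cycle brakes and D cyclins tested, 7 were higher and 7 lower. The D cyclin CCND2 stood at 1.22, 1.34 and 0.922 CPM in knockout samples, with parental values of 6.36, 6.45 and 5.93 CPM, and was lower untreated as well, by a difference of -3.47. MXD4, an antagonist of MYC, stood at 125, 114 and 125 CPM in knockout samples, with parental values of 327, 305 and 319 CPM. BTG2 and CDKN1A, both targets of p53, differed by -0.78 and -0.37. CDKN1C, which encodes the inhibitor p57, was higher by 1.14, the MYC antagonist MXI1 by 0.63, CDK6 by 0.25 and CCND3 by 0.20.

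Genes of glucose uptake and glycolysis were lower as a group under dexamethasone. Of 21 tested, 15 were lower and 3 higher, with a median of -0.24. In untreated cells 14 of the 21 were higher and 1 lower, with a median of 0.23, and 17 of 21 were more negative under dexamethasone in the test of the difference. The list holds TXNIP, which restrains glucose uptake and is also among the glucocorticoid-responsive genes. HK2, hexokinase of the first step, stood at 113, 115 and 110.2 CPM in the knockout and at 170.2, 215 and 170.1 CPM in parental samples, with 1 parental sample higher than the other two. Its difference was -0.70 ± 0.06, against 0.59 ± 0.06 untreated. GAPDH differed by -0.36 and LDHA by -0.35, while PFKM and LDHB were higher by 0.84 and 0.46.

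Stress and immune genes were mixed. Of 16 genes of the ATF4 amino acid response, 6 were higher and 6 lower, with the serine synthesis gene PHGDH at 0.74 and the stress genes CHAC1 and DDIT3 at -0.77 and -0.71. Of 25 MHC and interferon genes, 11 were higher and 7 lower, with a median of 0.03 that was 0.05 and 0.02 without knockout replicates 2 and 3, and 0.02 without parental replicate 1. CD74, the invariant chain, stood at 1481, 1454 and 1523 CPM in knockout samples, with parental values of 2250.0, 2289 and 2239 CPM. CD74 thus differed by -0.59, HLA-DQA1 by -0.84, HLA-DPB1 and its transactivator CIITA by -0.51 each and HLA-DRA by -0.41. HLA-DPA1, which pairs with HLA-DPB1, did not pass the test, with 319 ± 7.81 CPM in the knockout and 327 ± 1.90 CPM in parental samples (SD, n = 3). The immunoproteasome gene PSMB9 was higher by 0.76 and the interferon target IFIT1 by 1.00.

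Receptors of the LILR cluster went in both directions. Of 10 LILR and NLRP genes tested, 5 were lower and 2 higher, with a median of -0.22 that was 0.11 with no filter on low counts, -0.44 with at least 10 counts in every library and -0.40 in the unstranded counts. LILRA2, an activating receptor, stood at 35.0, 33.6 and 32.8 CPM in the knockout against 96.9, 99.9 and 92.0 CPM, while untreated parental samples of the dexamethasone set held 2.16 to 3.24 CPM. LILRB2, an inhibitory receptor, differed by -1.64, and LAIR1, a collagen receptor, by -0.43. LILRB4, an inhibitory receptor whose promoter stretch is printed above, stood at 16.4, 17.6 and 16.8 CPM in the knockout and at 2.17, 1.80 and 2.28 CPM in parental samples, 8.17-fold higher. It was higher without drug too, by 3.85 on the log2 scale. Reads of LILR genes can be lost or shared between near copies, so these values are uncertain.

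Of 14 adhesion and homing receptor genes tested, 7 were higher and 5 lower, with a median of 0.50 that was 0.02 with no filter on low counts. ITGA6, the laminin receptor chain alpha 6, stood at 87.3, 90.1 and 85.4 CPM in the knockout against 228, 229.6 and 230.7 CPM, a difference of -1.38 ± 0.03 that was -0.46 untreated. That untreated value compared parental samples at a mean of 105 CPM with knockout samples at 74.5 CPM. The untreated parental samples titled with the dexamethasone set stood higher, at a mean of 183 CPM. S1PR1, which guides lymphocytes out of tissue, was higher by 2.18, ICAM3 by 1.18 and ITGB1 by 0.76. CXCR4, the receptor for the marrow chemokine CXCL12, differed by -0.11. Most listed markers of other cell types stayed low. T-cell markers summed to 79.3 to 81.0 CPM in the knockout and 60.2 to 62.5 CPM in parental samples, with 9 of 15 at 3 counts or fewer in every sample of each group. LCK, a kinase also expressed in precursor B cells, was read at 43.5 to 44.4 against 17.8 to 18.8 CPM, while GATA3 differed by -0.43. Myeloid markers summed to 8.5 to 10.7 against 10.1 to 10.7 CPM, and erythroid and stromal markers to 1.15 to 1.71 against 0.640 to 0.740 CPM, with 12 of 15 and 9 of 10 at the floor in the knockout. CD33 made up most of the myeloid sum, at means of 8.30 CPM in the knockout and 8.70 CPM in parental samples. COL1A1 made up most of the other sum, at means of 1.47 and 0.650 CPM, and was higher in the knockout by 1.19. In bulk samples, fewer cells of a type and less RNA per cell cannot be told apart.

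The largest falls, by the rule that names 12, were of 2 kinds. One kind was low in the knockout with or without drug. YIPF6, a membrane protein of the Golgi, had no count in any knockout sample and stood at 3.68, 4.55 and 4.22 CPM in parental samples, at least 37.5-fold lower against a floor of 3 counts per library. GSTK1, FBXO21, FBXO25, CRISPLD1 and TFDP1 were likewise read at no more than 0.0742 CPM in any knockout dexamethasone sample. TFDP1, the dimer partner of E2F factors, stood at 13.0, 12.5 and 11.8 CPM in parental samples. In untreated knockout samples TFDP1 was also at 0.0917 to 0.104 CPM. GNG11, a G-protein gamma subunit, was 109-fold lower, at 0.297, 0.395 and 0.376 CPM beside parental values of 39.2, 37.7 and 41.6 CPM. Its log2 difference was -6.77 under dexamethasone and -3.30 untreated, and S100A16, a calcium-binding protein, gave -5.47 and -3.88. The zinc finger gene ZNF468 differed by -6.004.

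The other kind was near 0 in untreated cells of both lines. STAB1, a scavenger receptor, stood at 128, 125 and 129.9 CPM in parental dexamethasone samples and at 3.04, 3.24 and 2.73 CPM in the knockout, 42.3-fold lower. Untreated parental samples of the dexamethasone set held at most 0.22 CPM. Its line difference was -5.40 ± 0.06 under dexamethasone, -2.77 ± 0.11 under prednisolone and -0.33 ± 0.35 untreated, which did not pass the test. TACC2, a centrosomal protein, stood at 20.8, 21.8 and 19.2 CPM in parental samples and at 0.557, 0.593 and 0.273 CPM in the knockout, a difference of -5.44. The Notch target HEYL, at 6.85 to 8.41 CPM against 0.102 to 0.148 CPM, differed by -5.87.

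The largest rises included genes that were higher without drug too. NLRP11, a member of the NOD-like receptor family, stood at 6.83, 5.65 and 7.55 CPM in the knockout and at no more than 0.0738 CPM in parental samples, where it had 3 counts or fewer, and at 7.44 to 8.32 CPM in untreated knockout samples. KCP differed by 4.35, CYTIP, a regulator of lymphocyte adhesion, by 3.67, JCHAIN, the joining chain of polymeric antibodies, by 3.39, SMC1B, a meiotic cohesin subunit, by 3.25 and TMEM119 by 3.19. FCRLA, an Fc receptor-like protein of B cells, stood at 45.1, 45.9 and 44.7 CPM, with parental values of 5.11, 5.81 and 5.77 CPM, a difference of 3.04 ± 0.06 that was 0.35 ± 0.07 untreated. The other rises were LILRB4, TCEAL4 (2.79), ANKRD63 (2.77), the microtubule protein MAP2 (2.74) and the adapter HSH2D (2.70). JCHAIN stood at 10.7 to 12.7 CPM in the knockout and at 0.763 to 1.42 CPM in parental samples, but at 7.78 to 10.6 CPM in the untreated parental samples of the dexamethasone set.

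By a rule of level, 25 genes were at 3 counts or fewer in every knockout sample while at 1 CPM or more in every parental sample, 0.19% of the 13173 genes at that parental level. The reverse held for 1 of 12926 genes, NLRP11, or 0.00774%. Of the 25 genes, 18 were protein coding, and 6 met the same rule both untreated and under prednisolone. Another 11 were at 3 counts or fewer in every untreated parental sample of the dexamethasone set, so that in parental cells they were read above that floor only after the drug in this set. Examples of these are LILRA1, an activating receptor at 1.92 to 2.498 CPM in treated parental samples, and CYP4B1, a cytochrome, at 1.97 to 2.24 CPM.

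**Figure D4:**
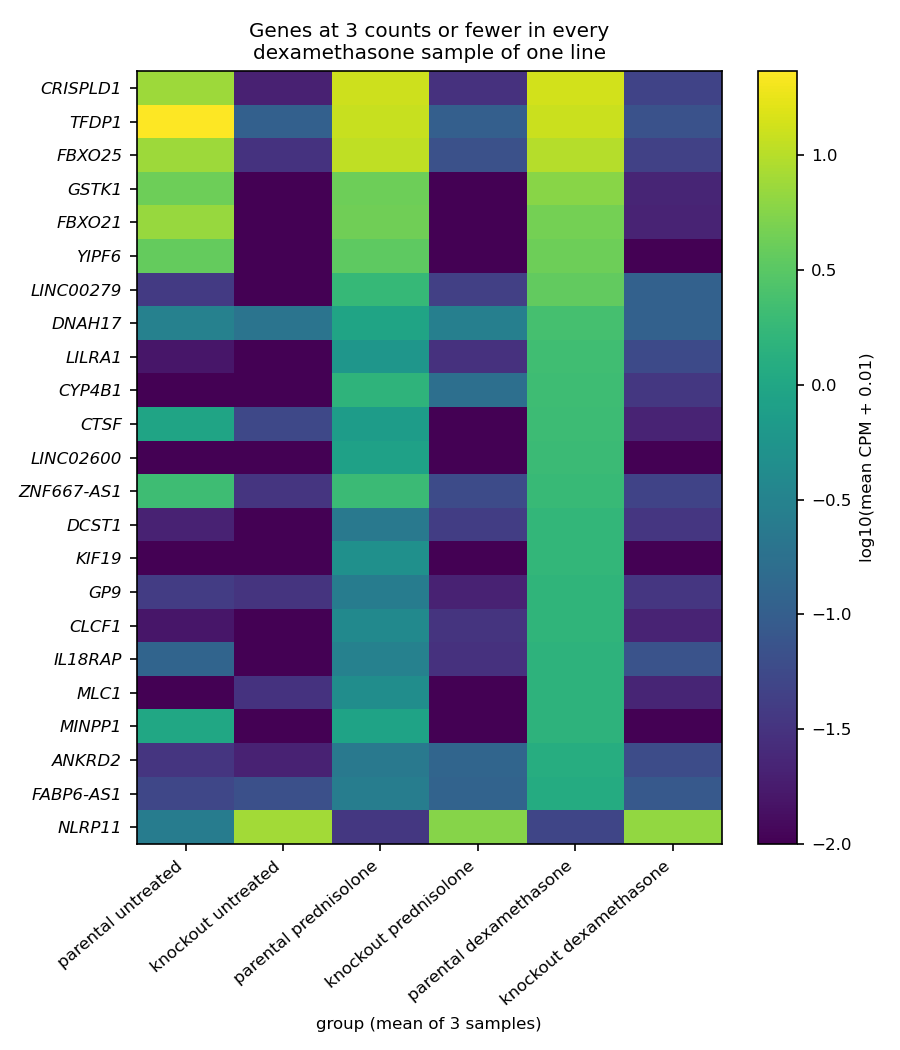
Mean level over 3 samples (colour, log10 of CPM plus 0.01) in 6 groups, for the 22 genes with a symbol at 3 counts or fewer in every knockout dexamethasone sample and for NLRP11, the 1 gene of the reverse rule. CRISPLD1 to YIPF6 are dark in all 3 knockout groups and bright in all 3 parental groups, whereas LILRA1 and CYP4B1 are dark in untreated parental cells too.

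The line difference under dexamethasone overlapped with that measured in other samples. Of genes tested in both, 3297 were called both under dexamethasone and untreated, 36.0% of the dexamethasone calls and 73.1% of the untreated ones, and 2598 of them (78.8%) had the same sign. Among genes that reached 1 on the log2 scale in both, 389 of 402 had the same sign. Across 16127 genes, which are not independent replicates, Pearson r was 0.64 and Spearman rho 0.34. With prednisolone, 4309 genes were called in both, 46.3% of the dexamethasone calls and 78.4% of the prednisolone ones, with 91.7% of the same sign and r of 0.79. Over all genes tested in each comparison, 56.6% were called under dexamethasone, 27.1% untreated and 32.5% under prednisolone. The shares of dexamethasone calls are read beside 27.1% and 32.5%, and those of the other calls beside 56.6%.

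**Figure D5:**
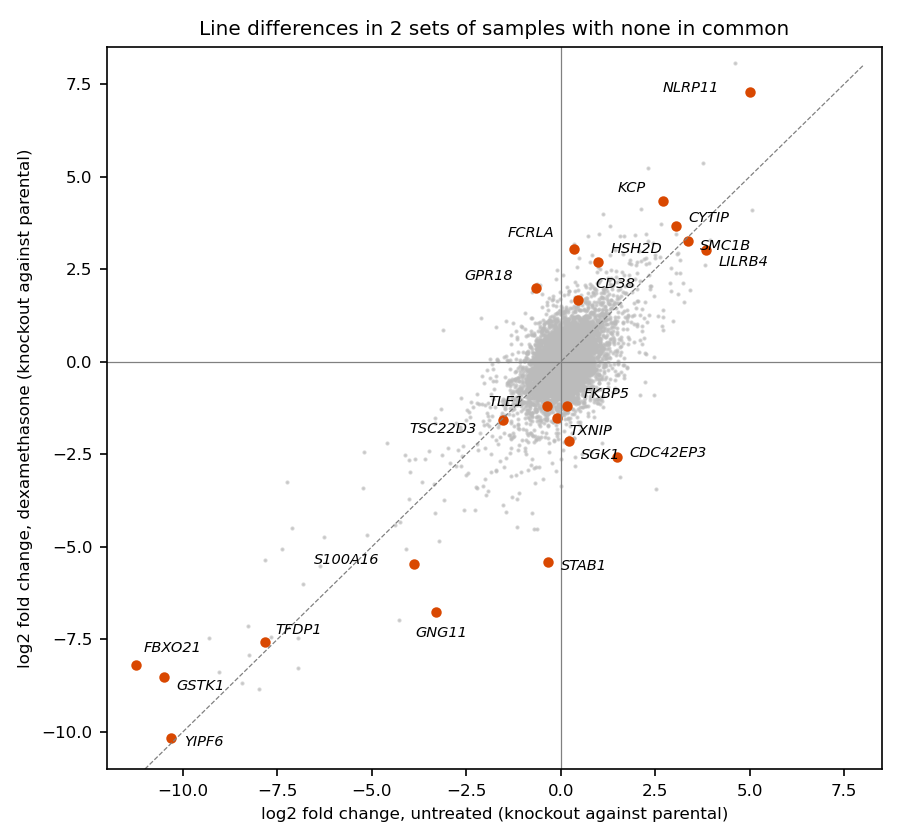
Log2 fold change between lines (knockout against parental) of each gene tested in both, under dexamethasone (vertical axis) and untreated (horizontal axis), in samples that the axes do not share; the broken line marks equal values. TSC22D3 and LILRB4 lie near the line, whereas STAB1, at -5.40 under dexamethasone and -0.33 untreated, FKBP5, TXNIP and FCRLA lie far from it. The positions of genes at or near 0 counts in a group, such as YIPF6 and NLRP11, depend on the prior count of the fit.

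The test of the difference between the glucocorticoids called 22% of 17872 genes, 3930 in number. Dose, drug and sample set all differ in that contrast and cannot be told apart. LSP1, an actin-binding protein of leukocytes, is the gene that both tests of difference named among their most negative. It stood at 24.2, 24.6 and 24.8 CPM in parental and at 0.891, 0.791 and 1.06 CPM in knockout dexamethasone samples, and under prednisolone the line difference was -1.48 ± 0.12 against -4.72 ± 0.10. GPR18, a lipid receptor, was with GZMK and FCRLA among the most positive in both. It stood at 9.39, 9.45 and 10.1 CPM in the knockout against 2.66, 2.31 and 2.35 CPM in parental samples under dexamethasone, and at 4.91 to 5.21 against 7.86 to 8.43 CPM untreated.

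Transcripts of the mitochondrial genome were lower in the knockout under dexamethasone. Of 13 protein-coding mitochondrial genes, 12 were lower and none was higher, with a median of -1.27. MT-ATP6 differed by -1.72, MT-ND4 by -1.63, MT-CO1 by -0.70 and MT-CO3 by -0.15, and MT-ND6 did not pass the test at 0.13, a value that changed sign without knockout replicate 1. Together they took 0.763% to 0.825% of counts in the knockout samples and 1.16% to 1.18% in the parental samples. Untreated, 1 was lower and 1 higher, with a median of 0.06, and under prednisolone 8 were lower and 1 higher, with a median of -0.45. In parental cells dexamethasone raised 11 of the 13 and lowered 0, with a median of 0.39. The parental dexamethasone samples held the highest share of all groups read here. The share was 0.748% to 0.990% in the untreated parental samples titled with them and 0.543% to 0.789% in untreated knockout samples. Nuclear chromosomes had medians between -0.10 and 0.08. Library composition moves with these transcripts, and its part in them was not tested.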

How the data were processed

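Per the labels' protocols, RNA sequencing libraries were made from cell line RNA. The deposited files give unnormalized read counts for each gene, unstranded and for each strand; per the submitters' processing notes the build is hg19. Column 4, which holds the reads' strand, was used, with its 62446 genes; 4 summary lines naming no gene stayed out. Symbols matched 40641 gene IDs. Levels are counts scaled to 1000000 in genes (CPM). Per the labels, groups follow the titles and characteristics, with which the treatment protocol disagrees. Lines were compared with edgeR 4.0.16 (R 4.3.3): filterByExpr, TMM, quasi-likelihood F test and Benjamini-Hochberg adjustment over all genes tested, each comparison on its own samples. Differences between conditions were interaction contrasts over 12 samples. Replicate libraries differed by more than sampling noise and none were merged. In simulated counts, 98% of 100 genes changed by 1 on the log2 scale and 85% of 100 changed by 0.5 were called. Genes named are TLE1, members of 17 lists, the 12 largest rises and falls (adjusted p under 0.05, a symbol, no overlap between groups, and a mean log2 CPM of 1 or more), the 8 most abundant genes of the rule on 3 counts, and the 5 most extreme differences in each direction; the other genes of the floor rule and the mitochondrial genes were chosen after their values were seen. Members and lists were chosen with earlier results of these data known. A count of 0 allows up to 3 counts, which covers counting error alone because reads without molecular identifiers are not independent molecules. Alternatives were RLE factors, DESeq2 1.42.0, other filters, robust moderation, all groups fitted together, the unstranded column 2, a GC trend, a replicate block and leaving out each library.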

Additional observations from a re-analysis of the deposited data

Results flagged for a closer look

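The difference between lines under dexamethasone was tested against that in untreated cells and against that under prednisolone, in each case with other samples. Against untreated cells 5461 genes differed, and against prednisolone 3930 did (edgeR interaction contrasts). Sample set and treatment cannot be told apart in either.

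The most negative shifts from untreated cells, on the log2 scale, were those of GOLGA6GP (-5.09), STAB1 (-5.08), LSP1 (-4.82), TACC2 (-4.43) and CDC42EP3 (-4.07). The Golgi-related GOLGA6GP is a pseudogene of a repeated family, so its value is uncertain. Untreated it was at or near the floor, at 0 to 0.0204 CPM in parental and 0 to 0.161 CPM in knockout samples. The size of its shift therefore depends on the prior count of the fit. Under dexamethasone it stood at 11.1 to 13.8 CPM in parental and 3.04 to 4.45 CPM in knockout samples. CDC42EP3, an effector of the GTPase CDC42, stood at 16.6 to 16.9 CPM in parental and 2.65 to 2.97 CPM in knockout dexamethasone samples. In the untreated samples of that contrast the order was the other way, at 0.307 to 0.575 CPM in parental and 0.903 to 1.28 CPM in knockout samples. The other untreated parental group, at 0.769 to 1.18 CPM, overlapped with the knockout values.

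The most positive shifts from untreated cells were those of FCRLA (2.68), GPR18 (2.65), GZMK (2.65), TLR10 (2.43) and GADL1 (2.32). GZMK, a granule protease gene, stood at 15.8 to 17.5 CPM in knockout and 8.57 to 8.88 CPM in parental dexamethasone samples. Untreated, the knockout was the lower line at 0.278 to 0.738 CPM against 1.67 to 2.02 CPM. TLR10, a Toll-like receptor gene, stood at 1.86 to 2.63 CPM in knockout and 0.185 to 0.246 CPM in parental dexamethasone samples.

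Against prednisolone, the most negative shifts were those of RN7SKP71 (-3.53), HEYL (-3.47), GNG11 (-3.41), LSP1 (-3.25) and SH3TC1 (-2.86). RN7SKP71 is a pseudogene with many near copies and is uncertain. The most positive were those of LILRB1 (2.42), GPR18 (2.24), FCRLA (2.13), GZMK (2.09) and HR (1.75). LILRB1 overlapped between lines under dexamethasone, at 10.9 to 13.8 CPM in knockout and 11.3 to 13.1 CPM in parental samples. Under prednisolone it stood at 1.25 to 1.65 against 7.40 to 8.35 CPM. HR was lower in the knockout under both drugs, at means of 1.31 against 10.4 CPM with dexamethasone and 0.214 against 5.95 CPM with prednisolone. For these 20 shifts, the alternatives that were run, each left-out library included, gave the same direction and the same side of the threshold.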

How the results depend on the processing

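The number of genes called lay between 7985 (all Nalm6 and knockout groups fitted together) and 9745 (no filter on low counts), with 8289 in DESeq2 and 9659 with the replicate block. Leaving out each library gave 8727 to 9279. The replicate numbers did not pair the samples, as deviations of same-numbered samples correlated at 0.0095, -0.017 and 0.044. The block changed no count of calls by over 1.5 times, and of the named genes it changed only the call of ISG20. The count of genes that reached 1 on the log2 scale was 757 with at least 10 counts in every library, 383 higher and 374 lower. Without 1 library it was 1367 to 1579. The contrast with untreated cells gave 4596 to 7046 genes, the highest without untreated knockout replicate 3, and that with prednisolone 3130 to 4442. Of 113 named genes, MT-ND6 changed sign, to -0.0083 in the unstranded column and -0.16 without knockout replicate 1, and was 0.28 without knockout replicate 2. ISG20 passed the test in 6 alternatives, MT-ND6 in 1 with no filter and, with the opposite sign, without knockout replicate 1, and CXCR4 and MT-CO3 missed it in 1 each. List medians near 0 changed sign. With the GC trend removed they were 0.0524 for TLE and TCF/LEF genes, 0.0201 for the BCL2 family, -0.0473 for DNA replication and mitosis and 0.0451 for ATF4 genes, and with the replicate block added 0.0520, 0.0198, -0.0488 and 0.0450. With no filter on low counts the TLE and TCF/LEF median was 0.20 and the LILR and NLRP median 0.11. Leaving out each library gave -0.0371 to 0.0576 for DNA replication and -0.0334 to 0.0127 for ATF4 genes. The median of prednisolone-raised genes was -0.46 with at least 10 counts in every library, -1.10 for genes raised by at least 2, and -0.61 to -0.56 without 1 library. That of lowered genes was 0.42 with no filter, 0.48 in the unstranded column, 0.65 with the GC trend removed, 0.65 with the replicate block added, 1.05 for genes lowered by at least 2, and 0.55 to 0.63 without 1 library. At 10 counts or fewer, 60 genes met the level rule in the knockout and 7 in parental cells, and 9 did so at 2 CPM or more in parental cells. The causes were not tested. The smaller knockout libraries put the floor of 3 counts at 0.111 CPM there and at 0.0715 CPM in parental samples, so lower levels were not detectable.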
